A study of Rattus norvegicus with 6 samples.

Results

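The genes described here are Gja1, Gja4, Gja5 and Gjc1, which encode the 4 connexins of the vessel wall, and Panx1, which encodes a related channel protein. A probe set, a group of short probes that reports 1 transcript, was taken for a member where the platform annotation names that gene alone. This gave 4 probe sets, 1 each for Gja1, Gja4, Gja5 and Panx1, of the 28879 on the array. No probe set is named for Gjc1 in the annotation used here, so no value is given for it. The thoracic aortae came from 24-week-old rats of 2 inbred strains without further treatment. The spontaneously hypertensive rat (SHR) develops high blood pressure, and the Wistar-Kyoto rat (WKY) is the related strain with normal pressure. There were 3 Affymetrix Rat Gene 2.0 ST arrays of each strain, 6 in all, and the comparison asked whether RNA levels in the aorta differ between the strains. The labels do not say that each array held a different animal, and the p-values below cover the spread among these samples alone, which may be technical.

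Connexins are membrane proteins that assemble into hexameric channels, and channels of adjacent cells dock to form gap junctions through which ions and small molecules pass from cell to cell. In arteries they couple endothelial cells to each other, smooth muscle cells to each other and, at myoendothelial junctions, the endothelium to the muscle beneath it, and so carry electrical signals along the vessel. Connexin 43 (Gja1) is made by smooth muscle, endothelium and fibroblasts, connexin 37 (Gja4) and connexin 40 (Gja5) mainly by arterial endothelium, and connexin 45 (Gjc1) by smooth muscle. Pannexin 1 (Panx1) shares the fold of the connexins but works mainly as a channel to the outside of the cell, through which ATP is released.

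Markers of the labelled tissue were present. The 11 of 13 smooth muscle markers with a named probe set had a mean log2 level between 8.71 and 9.08 on the SHR arrays and between 8.83 and 8.97 on the WKY arrays. The array medians over all probe sets were 2.29 to 2.52. They serve here as a mark of a dim signal, since the table holds no detection call. Of 9 measured markers of skeletal and cardiac muscle, Ckm, Tnnt3 and Tnni2 lay above the median of every array, Tnnt2 and Actn3 above that of 1 array each, and Myh6, Myh7, Myl11 and Nppa above none. The mean of the 9 was 2.12 to 2.21 in SHR and 2.14 to 2.63 in WKY, 0 passed, and 7 differences were below 0. The strains did not overlap for 5 of the 9 (Ckm, Tnnt3, Tnni2, Tnnt2 and Myl11), all lower in SHR, against 12.1% of all probe sets. The unadjusted p in limma was under 0.05 for 1, Tnni2, against 5.55% of all probe sets. The mean of 12 endothelial markers, of 15 listed, ran from 4.24 to 5.56 in SHR and from 4.85 to 5.54 in WKY. Markers of white fat, which was trimmed off at dissection, varied widely: the mean of 10 genes was 7.63, 5.85 and 4.29 on the SHR arrays, in the order of their replicate numbers, and 7.43, 6.04 and 6.21 on the WKY arrays. Each of these white fat means lay above the array medians, so signal of these markers remained on every array. In whole tissue, fewer cells of a type and less RNA per cell cannot be told apart. WKY replicate 3 had the highest median, 2.52, and the smallest SD of values, 2.12, where the remaining arrays had 2.22 to 2.27.

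The stretches of 250 bases upstream of the start sites of the 3 connexin genes with a value are shown because the genes that encode their candidate regulators are compared between the strains further on. They are RefSeq sequences of the reference rat genome GRCr8, not of SHR or WKY, written in the direction of transcription. Gja1 lies on the plus strand (chr20:36302314-36302563), Gja4 on the minus strand (chr5:144920325-144920574) and Gja5 on the plus strand (chr2:187290977-187291226). Capitals mark matches to the AP-1 element TGAGTCA, which Jun and Fos proteins bind, and to the GC box GGGCGG, which Sp1 binds.
Gja1: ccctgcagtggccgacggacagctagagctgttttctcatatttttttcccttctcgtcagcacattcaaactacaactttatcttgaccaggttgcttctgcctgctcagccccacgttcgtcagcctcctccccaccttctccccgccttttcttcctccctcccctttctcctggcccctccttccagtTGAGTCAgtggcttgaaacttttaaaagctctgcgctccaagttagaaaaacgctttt
Gja4: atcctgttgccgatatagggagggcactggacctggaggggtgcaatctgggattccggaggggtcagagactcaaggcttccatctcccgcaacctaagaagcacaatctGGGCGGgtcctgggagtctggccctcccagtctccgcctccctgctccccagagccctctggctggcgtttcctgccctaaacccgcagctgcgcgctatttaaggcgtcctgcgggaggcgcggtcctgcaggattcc
Gja5: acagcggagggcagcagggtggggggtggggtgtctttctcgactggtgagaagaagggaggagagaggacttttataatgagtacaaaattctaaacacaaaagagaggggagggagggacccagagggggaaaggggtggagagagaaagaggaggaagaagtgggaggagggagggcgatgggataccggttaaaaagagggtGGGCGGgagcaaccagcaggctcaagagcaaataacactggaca
The AP-1 element was found in the Gja1 window, beginning 58 bases before the start site, and in neither other. Searched on both strands, it occurs in 4.05% of 33469 such windows of the rat genome. A GC box was found in the Gja4 window, 139 bases upstream, and in the Gja5 window, 44 bases upstream, but not in that of Gja1. It occurs in 30.5% of all windows. The T-box element GGTGTGA (3.22% of all windows) was in none of the 3, and the CACCC element CCACCC, which factors of the Klf family bind (26.1%), matched the minus strand of the Gja5 window 4 times, the match nearest the start overlapping the GC box. These are matches of letters and not shown to be sites of binding.

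Gja1 was measured at a higher level in SHR, but the difference did not pass the test. Replicates 1 to 3 of SHR had log2 levels of 7.92, 8.26 and 8.06, and replicates 1 to 3 of WKY had 7.83, 7.79 and 7.38. Every SHR array lay above every WKY array, by the smallest margin between SHR replicate 1 and WKY replicate 1, and WKY replicate 3 was the lowest of all. The means were 8.08 ± 0.17 (SD, n = 3) in SHR and 7.67 ± 0.25 (SD, n = 3) in WKY. The log2 difference, SHR minus WKY, was 0.41 ± 0.18 (SE; 95% interval -0.01 to 0.83), a measured ratio of 1.33 with an interval from 0.990 to 1.78. The unadjusted p in limma was 0.0562, and the adjusted p over 21659 tested probe sets was 0.912. Without WKY replicate 3 the difference was 0.27 ± 0.15 (limma adjusted p = 0.792), and its adjusted p lay between 0.426 and 0.993 over all 17 alternative settings, every one of which kept SHR higher. Smooth muscle markers did not separate the strains in this way, with means of 8.90 in SHR and 8.91 in WKY. With their mean as a covariate the difference of Gja1 was 0.41 ± 0.19 (SE, limma adjusted p = 0.766). With the endothelial mean it was 0.41 ± 0.21 (adjusted p = 0.572), and with the white fat mean 0.40 ± 0.20 (adjusted p = 0.799). The fibroblast mean was 7.66 in SHR and 8.08 in WKY, with 8 of 9 genes lower in SHR. Its arrays overlapped, from 6.92 to 8.41 in SHR and from 7.92 to 8.18 in WKY. No fit used the fibroblast mean. The part of cell types in the level of Gja1 was not tested beyond these values.

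**Figure D1:**
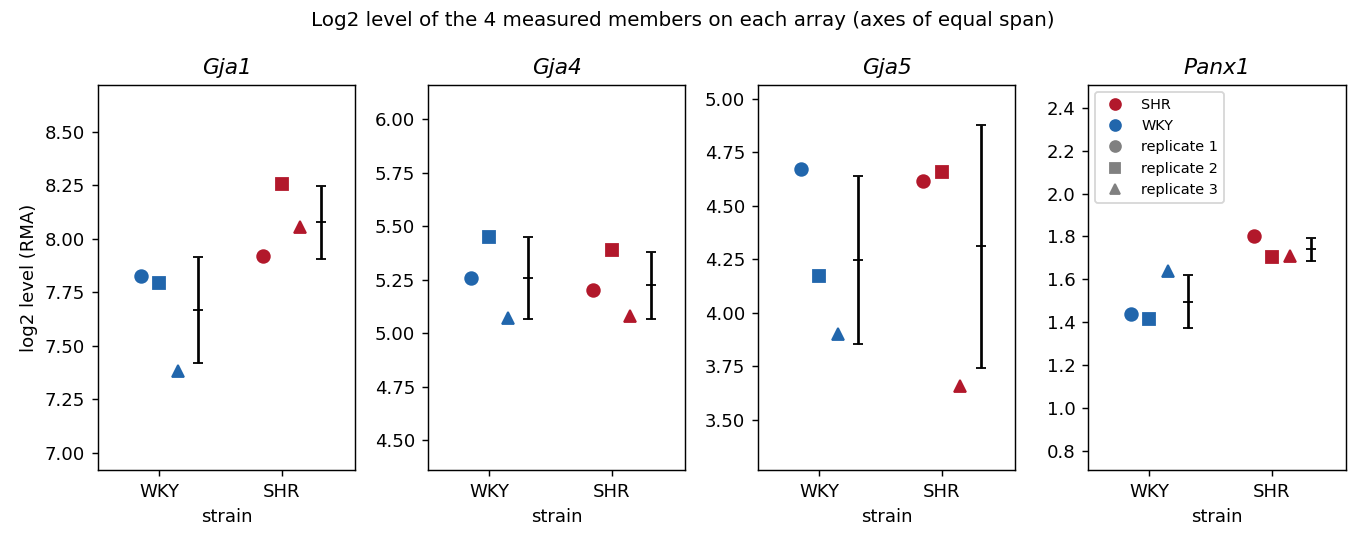
The log2 level (RMA) of Gja1, Gja4, Gja5 and Panx1 on each of the 6 arrays, by strain (blue WKY, red SHR) and replicate (circle 1, square 2, triangle 3), with the mean and SD of each strain in black beside the points; all 4 axes span the same number of log2 units. The strains do not overlap for Gja1 and Panx1 and overlap for Gja4 and Gja5, and Gja5 spreads over 1.02 log2 units.

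Gja4 showed the least difference of the 4 measured members between the strains. Its log2 level was 5.20, 5.39 and 5.08 in SHR and 5.26, 5.45 and 5.07 in WKY, so the arrays of the 2 strains lay over the same range. The means were 5.22 ± 0.16 (SD, n = 3) and 5.26 ± 0.19, and the difference was -0.04 ± 0.17 (SE; limma adjusted p = 0.983). Its 95% interval, from -0.42 to 0.35, holds measured SHR to WKY ratios from 0.746 to 1.28, so a change within that range in either direction cannot be told from none with 3 arrays a strain. Its sign turned when each array was centred on its median (0.012), without SHR replicate 3 (0.036) and without WKY replicate 2 (0.060), so no direction is given for Gja4.

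Gja5, the connexin of conducted signals in arterial endothelium, varied between arrays more than between strains. Replicates 1 to 3 of SHR had log2 levels of 4.62, 4.66 and 3.66, and those of WKY had 4.67, 4.17 and 3.90. SHR replicate 3 was the lowest array and WKY replicate 1 the highest, with SHR replicates 1 and 2 close to it. The means were 4.31 ± 0.57 (SD, n = 3) in SHR and 4.25 ± 0.39 in WKY, and the difference was 0.06 ± 0.32 (SE; 95% interval -0.68 to 0.81; limma adjusted p = 0.983). This SE was at or above that of 89.4% of the tested probe sets, and the interval holds measured ratios from 0.622 to 1.75. Without SHR replicate 3 the difference was 0.39, without SHR replicate 1 it was -0.09, without SHR replicate 2 -0.11 and without WKY replicate 3 -0.11, none passing, so the sign rests on single arrays. Without WKY replicate 1 it was 0.27, and without WKY replicate 2 it was 0.02.

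The arrays on which Gja5 was low or high differed in their markers of other cells. SHR replicate 3, the lowest for Gja5, was also the lowest for the means of the endothelial list (4.24, against 4.59 to 5.56 on the other arrays), the fibroblast list (6.92, against 7.65 to 8.41), the white fat list (4.29, against 5.85 to 7.63) and the macrophage list (3.67, against 4.32 to 5.81), and the highest for the smooth muscle list, at 9.08. The mean of 5 brown fat genes was 3.27 on SHR replicate 3, its lowest, and 6.74 on WKY replicate 1, its highest and the highest for Gja5. Among these genes Ucp1 ran from 1.74 to 9.43 on the same arrays. Dio2 went the other way, at 2.99 on SHR replicate 3 and 2.37 on WKY replicate 1. SHR replicate 2 went another way: its Gja5 level of 4.66 stood beside an endothelial mean of 4.59, the second lowest. With the endothelial mean as a covariate the strain difference of Gja5 was 0.31 ± 0.26 (SE; limma adjusted p = 0.693), with the white fat mean 0.26 ± 0.23 (adjusted p = 0.834), and with the smooth muscle mean 0.04 ± 0.22 (adjusted p = 0.980). Gja4, also a gene of arterial endothelium, spread over 0.38 log2 units where Gja5 spread over 1.02. The part of these cell types in the level of Gja5 was not tested beyond these values.

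**Figure D2:**
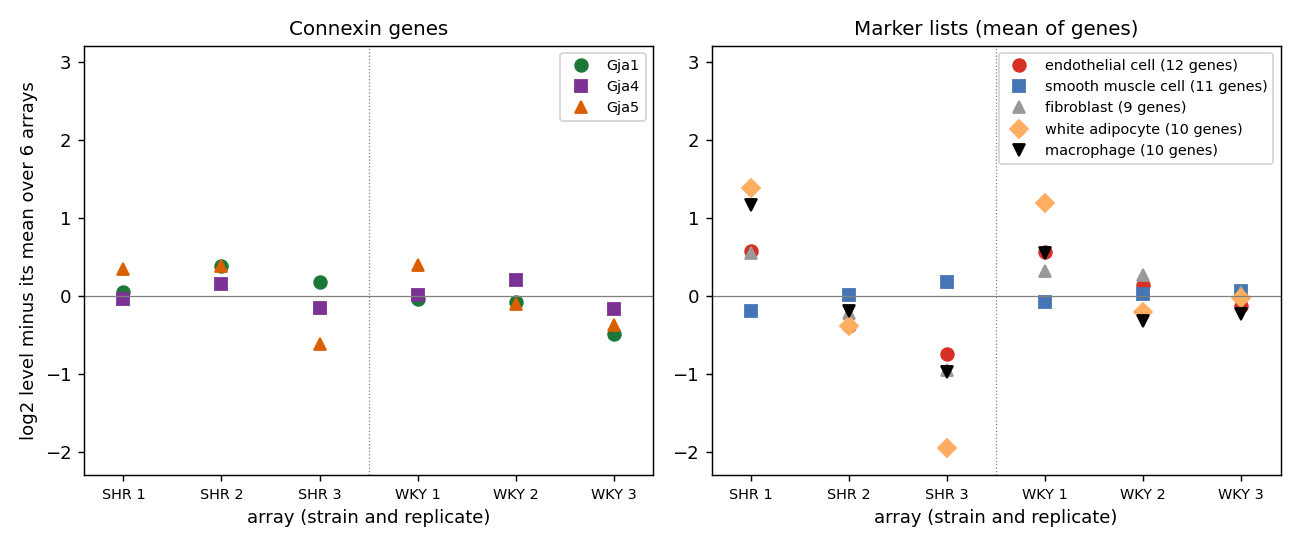
Log2 level minus its own mean over the 6 arrays, for Gja1, Gja4 and Gja5 (left) and for the mean of 5 marker lists (right), with the SHR arrays left and the WKY arrays right of the dotted line. SHR replicate 3 is the lowest array for Gja5 and for the endothelial, fibroblast, white fat and macrophage lists, and the smooth muscle list stays within 0.37 log2 units.

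Panx1 was dim on every array. Its log2 level was 1.80, 1.71 and 1.71 in SHR and 1.44, 1.41 and 1.64 in WKY, below all 6 array medians. The SHR arrays all lay above the WKY arrays, and WKY replicate 3 came closest to them. The means were 1.74 ± 0.06 (SD, n = 3) and 1.50 ± 0.12, and the measured difference was 0.24 ± 0.14 (SE; 95% interval -0.08 to 0.57; limma adjusted p = 0.923). A level under the medians is not shown to lie above background, so this is a difference between measured values and not an estimate of a fold in RNA. The 50th percentile filter left Panx1 untested.

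In all, 0 of the 4 measured members passed at a limma adjusted p under 0.05, where 0.0693% of all tested probe sets passed. At an unadjusted p under 0.05 there were likewise 0 of 4, against 5.55% of all probe sets. That count depended on the setting. With array weights it was 2 of 4, Gja1 and Panx1, against 10.4% of all probe sets. It was 1 of 4 with further quantile normalization (Gja1), with no filter (Gja1) and without WKY replicate 3 (Panx1), against 5.96%, 5.20% and 6.80% of all probe sets. The strains did not overlap for 2 of 4, Gja1 and Panx1, against 12.1% of all probe sets. The median difference of the members was 0.15, and that of all tested probe sets was -0.01. The absolute difference of Gja1 was at or above that of 88.0% of tested probe sets. For Panx1 this share was 69.1%, for Gja5 22.1% and for Gja4 12.6%. With 4 members these counts are a description.

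**Figure D3:**
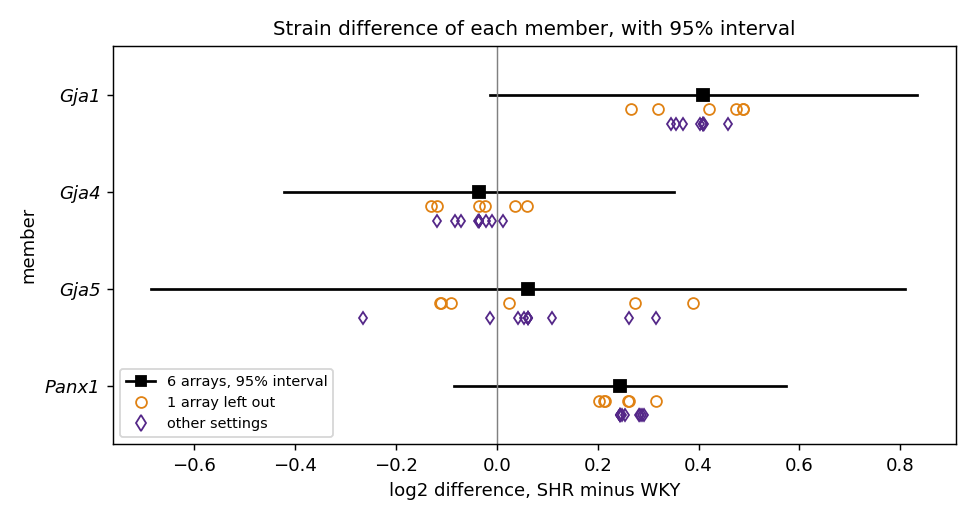
Log2 difference, SHR minus WKY, of each measured member (black square, with its 95% interval), with the same difference when 1 array was left out (orange circles) and under the other settings (purple diamonds). All 4 intervals include 0; the points of Gja1 and Panx1 stay above 0 and those of Gja4 and Gja5 fall on both sides.

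The balance between connexins within an array was compared as well, since a shift common to a whole array drops out of a difference between genes. A difference in the spread of values between arrays does not drop out, and WKY replicate 3 had the smallest SD, 2.12. Gja1 minus Gja4, in log2 units, was 2.72, 2.87 and 2.97 on the SHR arrays and 2.57, 2.34 and 2.31 on the WKY arrays. The SHR arrays all lay higher, and the strains differed by 0.44 (2.85 ± 0.13 and 2.41 ± 0.14, SD, n = 3). The exact two-sided permutation p was 0.1, the smallest that 3 against 3 arrays allow, and 0.6 after Benjamini-Hochberg adjustment over the 6 pairs of members. Gja5 minus Gja1 ran from -4.40 to -3.30 in SHR and from -3.62 to -3.15 in WKY, overlapping (exact permutation p = 0.5). Gja5 minus Gja4 ran from -1.42 to -0.58 in SHR and from -1.28 to -0.59 in WKY (exact permutation p = 0.9). Only the change in such a difference between arrays has a meaning here, since probe sets differ in their response to the same amount of RNA.

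The rest of the family gave weak signals in this tissue. Of 23 connexin and pannexin genes listed, 18 have a named probe set. Gja1, Gja4, Gja5 and Gjd3 lay above the array's median on all 6 arrays, 3 genes (Gjb5, Gjb6 and Panx2) on some arrays, and 11 on none, Panx1 among them. Of the 14 named genes other than the members, Gja6, Gja10, Gjd4 and Gje1 fell under the filter on dim probe sets, with no array above 1.44, and 10 were tested. None of the 10 passed, and 0 had an unadjusted p under 0.05, against 5.55% of all probe sets. Of their differences 3 were above 0 and 7 below, with a median of -0.05. Gjd3 lay at 2.87, 2.93 and 2.65 in SHR and at 3.03, 2.91 and 3.34 in WKY, with overlap (difference -0.27 ± 0.17, SE; limma adjusted p = 0.923). Gjc3, a connexin of glial cells, had the largest absolute difference of the 10, -0.37 ± 0.17 (limma adjusted p = 0.921). Its strains did not overlap, at 1.55 to 1.71 in SHR and 1.81 to 2.29 in WKY. This held for 1 of the 10, against 12.1% of all probe sets. All 6 values of Gjc3 are under the median of their array. Without WKY replicate 3 the difference of Gjc3 was -0.23, that of Gjd3 -0.15 and that of Gja3 -0.10, and Gjb6 had the largest, at 0.43. Gja3 differed by -0.22, Gjb1 by -0.12, Panx3 by -0.06, Gjb6 by -0.04, Gjb5 by -0.04, Gjb2 by 0.03, Gjd2 by 0.05 and Panx2 by 0.10. Gjb6 stood out on 1 array, WKY replicate 3, at 2.80 against 1.37 to 1.89 on the other 5, and without that array its SHR values lay above its WKY values. Leaving out 1 array turned the sign of 6 of the 10, Gjb2, Gjb5, Gjb6, Gjd2, Panx2 and Panx3, so no direction is given for these. The difference of Gjb1 ran from -0.22 without WKY replicate 1 to -0.02 without SHR replicate 3.

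**Figure D4:**
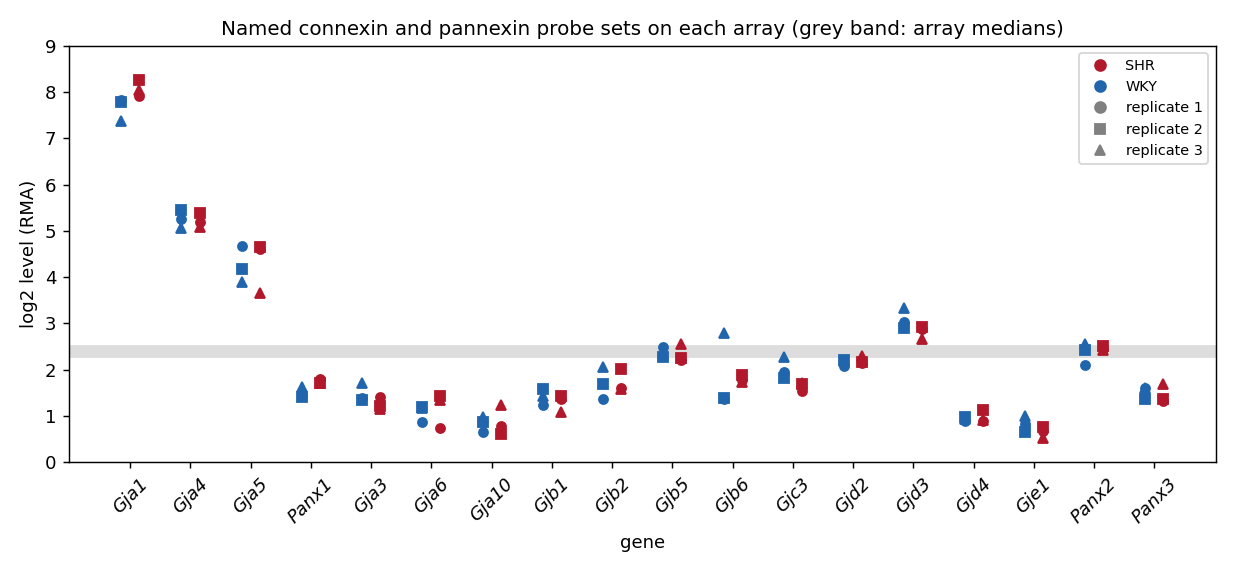
Log2 level (RMA) of the 18 named connexin and pannexin probe sets on each array (blue WKY, red SHR; circle, square and triangle for replicates 1 to 3), members first; the grey band is the range of the 6 array medians, 2.29 to 2.52. Gja1, Gja4, Gja5 and Gjd3 lie above the medians on every array; heights of different genes are not comparable as amounts of RNA.

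Partners of the junction were compared next. Connexin 43 binds the scaffold protein ZO-1 (Tjp1) and sits beside cadherins and catenins in the membrane. Of 17 measured genes in this list, 0 passed, 9 differences were above 0 and 8 below, with a median of 0.04. Tjp1 lay at 8.04 ± 0.07 in SHR and 7.80 ± 0.47 in WKY (SD, n = 3), a difference within the spread of WKY. It was 0.23 with all arrays and -0.04 without WKY replicate 3, the lowest array at 7.26, and 0.37 without either of the other WKY arrays, so no direction is given for Tjp1. The genes with the smallest unadjusted p were Cttn (cortactin, an actin-binding protein), at 6.14 ± 0.08 and 5.91 ± 0.09 (limma adjusted p = 0.923), Tuba1b, a tubulin, at 6.60 ± 0.49 and 7.05 ± 0.26, and Pkp2 (plakophilin of cell junctions), at 2.86 ± 0.17 and 2.42 ± 0.61. The difference of Tuba1b was -0.45 and moved to -0.18 without SHR replicate 3, and that of Pkp2, 0.44, moved to 0.75 without WKY replicate 1 and to 0.15 without WKY replicate 3.

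Kinases and phosphatases set how open and how long-lived connexin channels are. Of 13 measured genes 0 passed and 2 had an unadjusted p under 0.05, both higher in SHR, against 5.55% of all probe sets. The median difference was 0.10. Prkca, 1 of the protein kinase C genes in this list, averaged 5.82 ± 0.18 in SHR and 5.28 ± 0.33 in WKY (difference 0.55 ± 0.20, SE; limma adjusted p = 0.860). Its lowest SHR array, at 5.62, was only just above its highest WKY array, at 5.61. The tyrosine phosphatase gene Ptpn1 differed by 0.34 (limma adjusted p = 0.898) and Prkce, another protein kinase C, by -0.32 (0.923). The strains did not overlap for 3 of the 13 genes, against 12.1% of all probe sets. These were Prkca and Ptpn1, higher in SHR, and Prkce, lower in SHR. Src, whose product closes connexin 43 channels, lay at 5.49 ± 0.21 and 5.82 ± 0.28, a difference of -0.33 that was -0.22 without SHR replicate 1 and -0.21 without WKY replicate 2.

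Of the transcription factors reported to act on connexin genes, 18 were measured and 0 passed, with a median difference of -0.07. The unadjusted p was under 0.05 for 3 of them, against 5.55% of all probe sets. Of these, 1 was higher and 2 were lower in SHR. Klf15, a factor of the heart and vessel wall that responds to glucocorticoids, lay at 3.73 ± 0.45 in SHR and 4.78 ± 0.32 in WKY (difference -1.05 ± 0.27, SE; limma adjusted p = 0.527). Jun, a subunit of AP-1, lay at 6.84 ± 0.29 and 7.71 ± 0.35 (-0.86 ± 0.23, limma adjusted p = 0.575), all SHR arrays below all WKY arrays. The strains did not overlap for 3 of the 18 factors, against 12.1% of all probe sets. Fos, the partner of Jun, lay at 5.37 ± 0.45 and 6.71 ± 1.59, with overlap. The difference of Fos was -1.34, and it was -0.60 without WKY replicate 2 and -2.18 without WKY replicate 3. Tbx2, a repressor of connexin genes in the heart, differed by 0.42 (limma adjusted p = 0.894), and by 0.27 without WKY replicate 2. Sp1 and Sp3 differed by 0.01 and 0.13. The sign of Sp1 turned without SHR replicate 3 (-0.05) or WKY replicate 3 (-0.03), and Sp3 differed by 0.05 without SHR replicate 2. Klf2, the flow-responsive factor of endothelium, lay at 5.84 ± 0.30 and 6.29 ± 0.22.

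Genes of myoendothelial signalling, through which endothelium relaxes the muscle, numbered 15 measured, of which 0 passed, with a median difference of -0.13. The unadjusted p was under 0.05 for 2 of the 15, against 5.55% of all probe sets. Atp1b1, a subunit of the sodium pump, averaged 6.69 ± 0.08 in SHR and 6.09 ± 0.29 in WKY, with a limma adjusted p of 0.692, and Gucy1a1, a subunit of the nitric oxide receptor, at 7.40 ± 0.16 and 7.83 ± 0.11 (limma adjusted p = 0.818). The strains did not overlap for these 2 of the 15 genes, against 12.1% of all probe sets. Kcnn4, a calcium-activated potassium channel of endothelium, differed by 0.35, and by 0.20 without SHR replicate 1. Nos3, the endothelial nitric oxide synthase, lay at 4.24 ± 0.71 and 4.70 ± 0.49, with overlap. Its difference of -0.46 was -0.86 without SHR replicate 1, -0.17 without SHR replicate 3 and -0.18 without WKY replicate 1.

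The ATP that leaves through pannexin 1 acts on purinergic receptors and is degraded outside the cell to adenosine. Of 17 measured genes of this system 0 passed, with a median difference of 0.02. An unadjusted p under 0.05 was found for 1 gene, against 5.55% of all probe sets. That gene was Nt5e, whose product makes adenosine from AMP. Its log2 level was 6.91 ± 0.18 in SHR and 5.94 ± 0.62 in WKY (difference 0.96 ± 0.30, SE; limma adjusted p = 0.720). The difference was 0.62 without WKY replicate 3, the lowest array at 5.25. The ATP receptor gene P2rx4 differed by 0.23, and by 0.14 without WKY replicate 3. The ADP receptor gene P2ry1 lay near the array medians, at 2.015 ± 0.635 in SHR and 2.626 ± 0.237 in WKY. Its difference of -0.61 (limma adjusted p = 0.923) was -0.26 without SHR replicate 3.

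Gja4 and Gja5 mark arterial endothelium, and other genes of that identity were set beside them. Of 13 measured genes 0 passed and 2 had an unadjusted p under 0.05, 1 in each direction, against 5.55% of all probe sets. The median difference was -0.02, with 4 differences above 0 and 9 below. The strains did not overlap for 3 of the 13, Unc5b and Notch4 among them, against 12.1% of all probe sets. Unc5b, a netrin receptor, lay at 5.86 ± 0.22 in SHR and 5.04 ± 0.07 in WKY (difference 0.82 ± 0.16, SE; limma adjusted p = 0.310), and the receptor gene Notch4 at 3.15 ± 0.17 and 3.70 ± 0.34 (-0.55 ± 0.21; limma adjusted p = 0.861), -0.36 without WKY replicate 3. Bmx, a kinase of arterial endothelium, lay near the array medians, at 1.91 ± 0.27 and 2.41 ± 0.38, a difference of -0.50 that was -0.33 without WKY replicate 3. Dll4, the arterial Notch ligand, differed by -0.21, by -0.40 without SHR replicate 1 and by -0.09 without SHR replicate 3. Of the 12 endothelial markers that are not specific to arteries, 0 passed, and the median difference was -0.49. The unadjusted p was under 0.05 for 2, both lower in SHR, against 5.55% of all probe sets. Cldn5, a tight junction protein, differed by -0.99 (limma adjusted p = 0.877) and Egfl7 by -0.68 (0.882). Flt1, a receptor of vascular endothelial growth factor, differed by 0.55 (0.923). Of these 12 markers 3 differences were above 0 and 9 below. Without SHR replicate 3 the difference of Cldn5 was -0.63. That of Flt1 was 0.31 without SHR replicate 1, and leaving out replicate 3 or 1 of WKY gave 0.26 or 0.85.

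The genes most like each member were taken by Pearson's r over the 6 arrays, among named genes that varied at least as much as the median probe set (7006 for Gja1 and Gja5, 7007 for Gja4 and Panx1). For Gja1 they were the kinase gene Stk10 (r = 0.995), Rab23, a small GTPase (0.993), and Tnfaip8 (0.988), and 253 genes had an r above 0.9. For Gja5 they were Hspd1, a mitochondrial chaperone (r = 0.980), Akr1c15 (0.961) and Treml4 (0.957), with 21 genes above 0.9. Hspd1 lay at 7.19, 7.12 and 6.32 in SHR and 7.15, 6.64 and 6.33 in WKY, low on the same arrays as Gja5. For Gja4 they were Dynlt2b (0.983), Hilpda (0.979) and Eif2b2 (0.967), and for Panx1 Mak16 (0.957), Slc11a1 (0.951) and P4ha3 (0.950). These r are a description over 6 arrays that share their normalization, and differences in tissue makeup between the arrays enter them.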

How the data were processed

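The authors deposited log2 values, 1 per probe set and array, from the RMA method of Affymetrix Expression Console (version 1.2.1), according to the submitters' processing notes. RMA subtracts background, is meant to equalise the distributions of the arrays and combines the probes of a set. The deposited distributions were not equal, with array medians of 2.29 to 2.52 and SDs of 2.12 to 2.27. That values are log2 follows from RMA and from their range. Neither the build nor the annotation version is given in the sources used here. Probe sets with 1 gene symbol (18511) were named, with current symbols through Entrez identifiers for 18394. The members, gene lists and named genes were chosen with earlier results of these data known. The text names all members, all measured relatives and the 3 genes with the smallest p of each other pathway list. No gene of the marker lists was named by rule. Tjp1, Src, Fos, Sp1, Sp3, Klf2, Nos3, Dll4, Cldn5, Egfl7, Flt1, Ucp1, Dio2 and the striated muscle markers were added after their values were seen.

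Probe sets with a mean at or above the 25th percentile (log2 1.17) were tested, 21659 in all. The linear model used lmFit and eBayes of limma 3.58.1 (R 4.3.3), with strain as the only term, two-sided, and Benjamini-Hochberg adjustment over all tested probe sets. The fit was tested on simulated data. A gene with several probe sets was represented by the brightest. Sequencing depth does not apply; the number of arrays limits precision. Each member rests on 1 probe set, and sequence differences between the strains under its probes were not tested. The alternatives were other normalizations, filters and variance models, array weights, a replicate block, marker means as covariates and leaving out arrays.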

Additional observations from a re-analysis of the deposited data

How the results depend on the processing

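No member passed under any of the alternatives run, and the direction of Gja1 and Panx1 was kept in all of theirs. When 1 array was left out, the difference ran from 0.27 to 0.49 for Gja1, from 0.20 to 0.32 for Panx1, from -0.13 to 0.060 for Gja4 and from -0.11 to 0.39 for Gja5. The sign of Gja5 turned with array weights (-0.014) and when SHR replicate 1 and WKY replicate 3 were both left out (-0.26), and that of Gja4 with median centring (0.012); the cause was not tested. The number of passing probe sets in the whole table, 15, was 65 with array weights, 24 with the smooth muscle mean as a covariate, 115 without both of those arrays, 3 with the replicate block and 2 to 5 with 1 array left out. With the replicate block, Gja1 differed by 0.41 (limma adjusted p = 0.769). The numbers are not stated to pair arrays. Deviations from the strain mean gave an r of 0.35, -0.08 and 0.23 for same-numbered arrays 1, 2 and 3. Arrays with different numbers gave r from -0.32 to 0.17, and these r are not independent, so they do not show a pairing by number. Averaging several probe sets of a gene did not apply, since each member has 1. Panx1 has no value with the 50th percentile filter. At 3 arrays a strain, the intervals of the members span 0.66 to 1.49 log2 units.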
